A study of Mus musculus with 6 samples.

Results

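Zp1, Zp2, Zp3, Gdf9, Bmp15 and Oosp1 are genes of the growing oocyte whose products are secreted by it. Their probes were taken by gene name from the array files, which gave 6 genes and 7 probes among 31791 gene names and 39429 probes. The samples were ovaries of C57BL/6J females at 20 weeks of age, 3 wild type and 3 SeBP1 knockout, each hybridised to its own single-colour Agilent mouse array. SeBP1 is selenium-binding protein 1, encoded by Selenbp1. How the deletion was made and which part of the gene it removes are not given in the sources used here. The labels number the arrays 1 to 3 within each genotype without saying whether every ovary came from an animal of its own, so p-values measure only the spread between arrays, which may be technical.

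The zona pellucida is the glycoprotein coat around the mammalian egg, built in the mouse from the proteins of Zp1, Zp2 and Zp3, and it governs sperm binding and the block to polyspermy. Gdf9 and Bmp15 encode growth factors of the TGF-beta family that the oocyte releases to the surrounding granulosa and cumulus cells, where they support follicle growth and cumulus expansion. Oosp1 encodes a secreted protein of the oocyte. In a whole ovary all of these transcripts come from a small number of large cells, so that fewer oocytes and less RNA per oocyte cannot be told apart in these data.

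The probes lie in different places of the genome (build mm9). Zp1 was read at chr19:10988786-10988845, Zp2 at chr7:127279069-127279225, Zp3 at chr5:136464281-136464340, Gdf9 at chr11:53251307-53251366 and Bmp15 at chrX:5891550-5891609. Oosp1 had a pair of probes, a brighter one at chr19:11742163-11742222 and a dimmer one at chr19:11763158-11763217. Each probe is 60 bases long, and the span given for Zp2 is 157 bases, so that this probe is interrupted in the genome. Where each probe lies within the exons was not worked out here. The letters of 3 of the probes, those for Zp2, Zp3 and the dimmer Oosp1 spot, are shown.
Zp2 (minus strand): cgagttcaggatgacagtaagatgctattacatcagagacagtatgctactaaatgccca
Zp3 (plus strand): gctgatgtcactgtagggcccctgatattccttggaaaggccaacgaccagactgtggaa
Oosp1 dimmer probe (minus strand): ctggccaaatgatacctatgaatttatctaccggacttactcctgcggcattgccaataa

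Zona pellucida genes are known to be switched on in the growing oocyte by FIGLA, a transcription factor that binds E-boxes, written CANNTG. Because the 6 genes moved together across the ovaries, as described next, the 250 bases before the start of each gene were searched for E-boxes where the RefSeq promoter table (build GRCm38.p6) held them, which was the case for 3 genes. Each is shown 5′ to 3′ on the strand of its gene, with every CANNTG match in capitals.
Zp3, chr5:135979855-135980104, plus strand: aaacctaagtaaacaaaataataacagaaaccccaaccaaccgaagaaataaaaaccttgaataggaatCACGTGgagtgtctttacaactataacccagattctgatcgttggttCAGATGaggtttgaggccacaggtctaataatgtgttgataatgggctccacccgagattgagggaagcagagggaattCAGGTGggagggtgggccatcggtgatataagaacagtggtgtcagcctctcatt
Bmp15, chrX:6320725-6320974, minus strand: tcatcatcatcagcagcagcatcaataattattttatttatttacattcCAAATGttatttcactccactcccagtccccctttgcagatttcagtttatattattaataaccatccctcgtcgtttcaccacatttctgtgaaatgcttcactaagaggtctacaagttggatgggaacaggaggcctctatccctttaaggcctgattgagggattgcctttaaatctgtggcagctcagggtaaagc
Oosp1, chr19:11691052-11691301, minus strand: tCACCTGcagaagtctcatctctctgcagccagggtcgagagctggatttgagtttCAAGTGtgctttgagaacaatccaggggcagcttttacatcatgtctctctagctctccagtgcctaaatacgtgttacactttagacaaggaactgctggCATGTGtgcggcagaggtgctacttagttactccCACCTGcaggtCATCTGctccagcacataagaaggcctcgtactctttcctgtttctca

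The Zp3 window held 3 E-boxes, the Oosp1 window 5 and the Bmp15 window 1. CANNTG reads the same on both strands and was present in 66.2% of the 32851 promoter windows of that length, so its presence alone sets no gene apart. The form CAGGTG, which is CACCTG on the other strand and is counted within CANNTG too, was present in 17.2% of all windows. It occurred once in Zp3, with its first base at position -55 counted back from the start of the gene, and at positions -249 and -59 in Oosp1. The form CACGTG, present in 6.02% of windows, occurred in Zp3 at position -181, while Bmp15 had neither of these forms. These are matches of letters, with no measurement of binding.

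All 7 probes were well above background on all 6 arrays. Each value is the log2 processed signal of a spot after subtraction of its array's 75th percentile, so that a difference of 1 is a doubling of signal, and levels are not comparable between probes. Zp1, whose protein cross-links the filaments of the coat, read 2.53, 2.63 and 1.89 in wild type and 2.05, 2.63 and 1.63 in the knockout, given here and below in the order of replicates 1 to 3. Zp2, whose protein is cleaved after fertilisation to stop further sperm binding, read 0.43, 0.40 and -0.47 in wild type and -0.14, 0.24 and -0.57 in the knockout. Zp3, which pairs with Zp2 in the filaments, read 3.12, 3.24 and 2.33 in wild type and 2.67, 3.08 and 2.39 in the knockout. For all 3 coat genes wild type replicates 1 and 2 and knockout replicate 2 were the high arrays, and the genotypes overlapped.

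The oocyte growth factors had the same high arrays. Gdf9 read 4.41, 4.50 and 3.53 in wild type and 3.81, 4.48 and 3.57 in the knockout. Bmp15 read -0.32, -0.36 and -1.18 in wild type and -1.02, -0.30 and -1.12 in the knockout. The brighter Oosp1 probe read 1.94, 1.92 and 1.17 in wild type and 1.24, 2.09 and 1.21 in the knockout, and the dimmer probe 0.62, 0.65 and 0.030 against -0.16, 0.70 and -0.22. Each genotype therefore held both high and low ovaries for every member. The highest and lowest of the 6 ovaries differed 2.00-fold for Zp1, 1.99-fold for Zp2, 1.88-fold for Zp3, 1.96-fold for Gdf9, 1.84-fold for Bmp15 and 1.89-fold for either Oosp1 probe. For Bmp15, the 3 high arrays lay within 0.059 of each other and the 3 low arrays within 0.16, with a gap of 0.66 between them. For Zp2, the member with the smallest gap, these values were 0.19, 0.43 and 0.38.

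**Figure D1:**
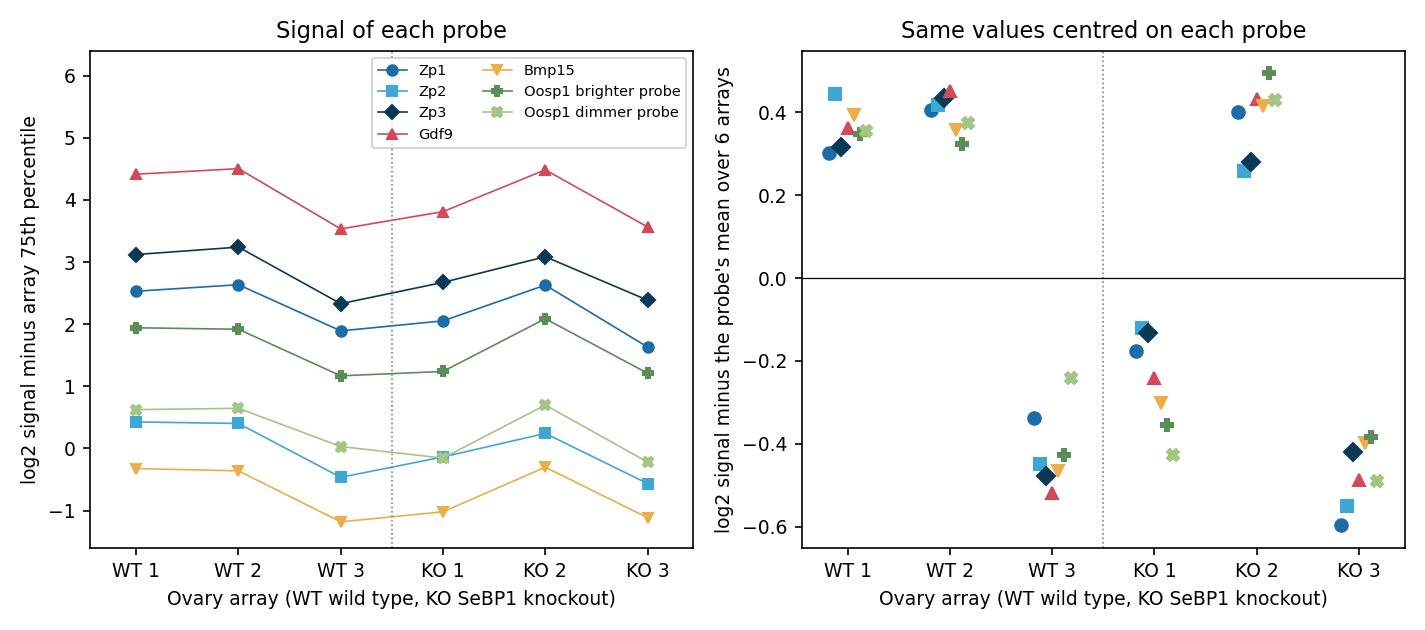
Scaled log2 signal, with the 75th percentile of the array at 0 (left) and the same values minus the mean of each probe over the 6 arrays (right), by ovary; points are single arrays. In the right panel all 7 probes lie above 0 in wild type replicates 1 and 2 and knockout replicate 2 and below 0 on the other arrays.

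The members were high and low in the same ovaries, in nearly equal steps. Over the 6 arrays and the 15 pairs of genes, with the brighter Oosp1 probe, Pearson's r ran from 0.917 for Zp2 and Oosp1 to 0.993 for Bmp15 and Oosp1, with a median of 0.969, and Spearman's rho from 0.771 to 1. The arrays fall into a high set and a low set, which by itself gives a high r, and all members share the RNA and scan of each array, so these values are a description with no p-value. Without the 2 arrays farthest from the median of the first gene of each pair, r ran from 0.870 to 0.998. With the mean of each genotype removed it ran from 0.921 to 0.993, and with the mean of each slide removed from 0.885 to 0.995. On the 4 arrays of the slide that held both genotypes r was 0.885 to 0.995, and slide 1 held only 2 arrays. The pair of Oosp1 probes had an r of 0.969.

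**Figure D2:**
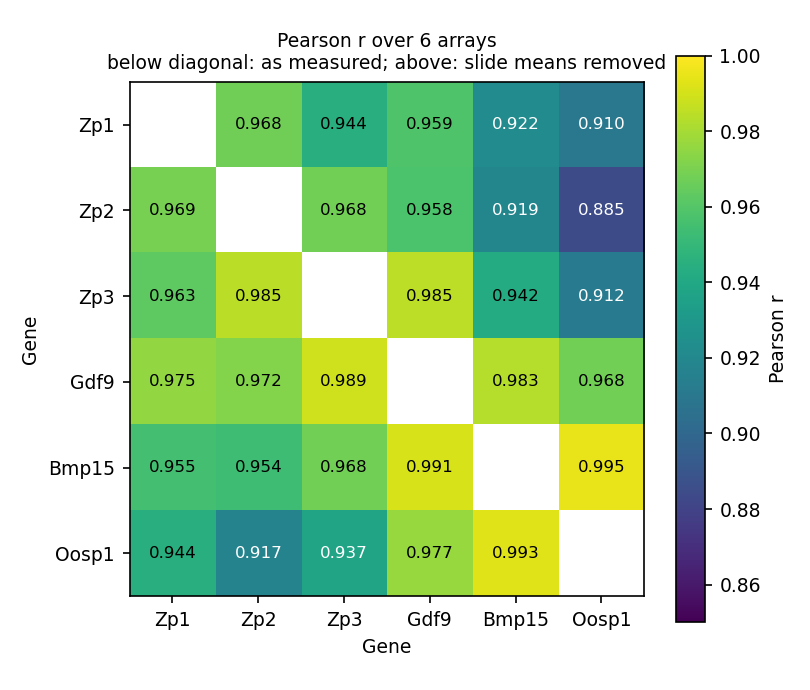
Pearson's r between genes over the 6 arrays, as measured (below the diagonal) and after the mean of each slide was removed (above it); colour gives r. The lowest value is 0.885, for Zp2 and Oosp1 with slide means removed, and the highest is 0.995, for Bmp15 and Oosp1.

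The steps were close to equal for every gene. The SD of each gene over the 6 arrays was 0.40 for Zp3 to 0.47 for Gdf9, and between 10.9% and 16.3% of the kept probes varied more than a given member. After the mean of the other 5 genes was subtracted, the SD was 0.058 for Gdf9, 0.069 for Bmp15, 0.085 for Zp3, 0.098 for Zp1, 0.10 for Zp2 and 0.11 for Oosp1. The log2 ratio of Bmp15 to Oosp1 had a range of 0.13 over the 6 arrays, and that of Zp2 to Oosp1 a range of 0.47. In knockout replicate 1 the coat genes stood above the mean of the other 5 genes, by 0.055 for Zp1, 0.12 for Zp2 and 0.11 for Zp3, and Oosp1 stood at -0.16. In knockout replicate 2 the departures were 0.14 for Oosp1, -0.15 for Zp2, -0.12 for Zp3 and 0.025 for Zp1. In knockout replicate 3 they were 0.11 for Oosp1, -0.15 for Zp1, -0.092 for Zp2 and 0.063 for Zp3, so the coat genes did not depart as one on either array.

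No member differed between the genotypes beyond the spread of the ovaries. The genotype labels were checked on Selenbp1, which read 2.52 to 2.68 in wild type and -0.37 to 0.025 in knockouts (limma difference -2.75, adjusted p = 0.0104), although its probe may lie outside the deleted part. The members were lower in the knockout mean on all 7 probes, as were 54.3% of the 24415 probes kept, with a median log2 difference of -0.20 against -0.017 over all kept probes. Called at an adjusted p under 0.05 were 0 of the 7, against 0.0041% of kept probes, and at an unadjusted p under 0.05 also 0 of 7, against 3.96%. The genotypes overlapped on all 7 probes, while they did not overlap for 8.96% of kept probes.

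Zp1 averaged 2.35 ± 0.40 (SD, n = 3) in wild-type ovaries and 2.10 ± 0.50 (SD, n = 3) in knockout ovaries. Its difference of -0.25 had a limma standard error of 0.31 (adjusted p = 1.00). The 95% interval of that difference ran from -0.99 to 0.49, that is from 1.98-fold lower to 1.41-fold higher. Zp2 differed by -0.27 (interval -1.02 to 0.47) and Zp3 by -0.18 (-0.89 to 0.52). The growth factors had differences of the same size, with Gdf9 at 4.15 ± 0.54 (SD, n = 3) in wild-type ovaries and 3.95 ± 0.48 (SD, n = 3) in knockout ovaries. Gdf9 differed by -0.20 (interval -1.02 to 0.62) and Bmp15 by -0.19 (-0.95 to 0.57). Oosp1 differed by -0.16 (-0.93 to 0.60) on its brighter probe and by -0.33 (-1.04 to 0.39) on its dimmer one. The adjusted p was 1.00 for every probe, and a loss of up to 1.85-fold lies within every interval.

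The size and sign of these differences depended on which ovaries were compared. Wild type replicates 1 and 2 lay on slide 1, and wild type replicate 3 lay on slide 2 with the 3 knockouts. A fit with slide as a block compares the knockouts with wild type replicate 3 only. There all 7 probes were higher in the knockout, as were 54.5% of kept probes, by 0.42 for Gdf9, 0.39 for Zp3, 0.37 for Bmp15, 0.34 and 0.078 for the Oosp1 probes, 0.31 for Zp2 and 0.21 for Zp1. The median over the probes was -0.48 without wild type replicate 3, -0.46 without knockout replicate 2, -0.16 without knockout replicate 1 and -0.070 without wild type replicate 1. It was -0.059 when wild type replicate 2 and -0.018 when knockout replicate 3 was left out. Array weights, which were lowest for wild type replicate 3 and knockout replicate 2, gave a median of -0.60. In that limma fit 6 of 7 probes had an unadjusted p under 0.05, as did 2637 of all 24415 kept probes. The smallest adjusted p of a member was 0.430. Wild type replicate 3 had the smallest share of spots well above background, 61.6% against 63.9% to 69.3% on the others, and the largest spread between repeat spots, 6.44% as a median coefficient of variation against 2.36% to 3.40%. The part of this in its low values was not tested.

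**Figure D3:**
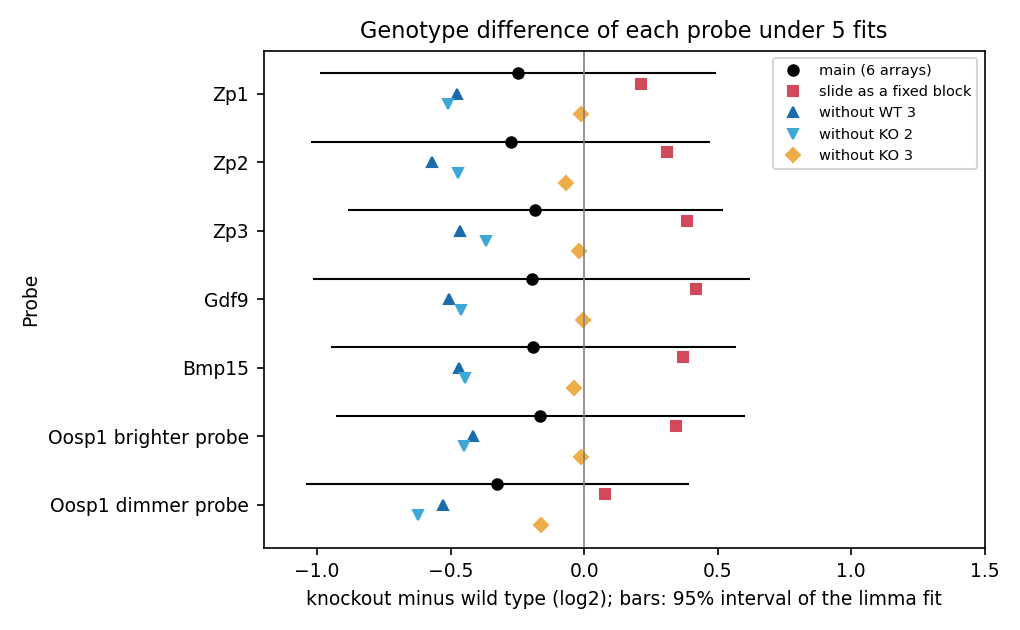
Knockout minus wild type on the log2 scale for each probe, fitted on all 6 arrays (black, with the 95% interval of the limma fit), with slide as a fixed block, and without the named array. Every interval of the 6-array fit includes 0, and the slide block moves each point from below 0 to above it.

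Granulosa and luteal markers had other orders of the arrays. The granulosa markers, 10 of 10 measured, had list medians, relative to the mean of each gene, of 0.20, 0.048 and -0.54 in wild type and -0.32, 0.0099 and 0.58 in the knockout. Luteal markers, 6 of 6 measured, stood at 0.21, 0.016 and 0.92 in wild type and 1.22, -2.64 and 0.30 in the knockout. The corpus luteum forms from the follicle after ovulation. Knockout replicate 2, an array with high oocyte values, had the lowest luteal median. Knockout replicate 1 and wild type replicate 3, which were low for oocyte genes, had the highest, and knockout replicate 3, also low, stood at 0.30. The luteal genes did not share 1 order. Lhcgr, Ptgfr, Prlr and Sfrp4 were lowest in knockout replicate 2, Akr1c18 in wild type replicate 3 (-2.23) and Parm1 in wild type replicate 1 (0.80). Theca markers were measured in 4 of 5, surface epithelium in 6 of 6, oviduct in 4 of 5, fat in 2 of 4, red cells in 3 of 3 and macrophages in 4 of 4, with 0 called by limma in each of these lists. Lrrn4 of the surface epithelium, at -1.02 (-0.67 without wild type replicate 1), and Cd68 of macrophages, at 0.76, had an unadjusted limma p under 0.05. So did 3.96% of kept probes, and 0 genes in the other 4 lists. The other macrophage markers differed by -0.029 for Csf1r, 0.13 for Emr1 and 0.057 for Lyz2, and the median of that list was 0.094. The surface epithelium medians were 0.56, 0.085 and -0.11 in wild type and -0.60, 0.067 and 0.049 in the knockout. By these medians the arrays high for the members were the highest for this list too, but knockout replicate 2 (0.067) was close to knockout replicate 3 (0.049). Krt8, Krt18 and Krt19 were higher in knockout replicate 2 than in knockout replicate 3, and Upk3b, Msln and Lrrn4 were lower. The median r of the surface epithelium list with the mean of the 6 members was 0.439. Of the theca markers, Ptch1 had an r of 0.920 with the mean of the 6 members, Cyp17a1 0.061 and Star -0.637. Hsd3b1 had no value on wild type replicates 1 and 2 and so no r, and its difference uses wild type replicate 3 only. The median r of that list, 0.061, is thus that of Cyp17a1. Foxj1 of the oviduct and Adipoq and Cidec of fat were below the filter on background. The oviduct median was 1.74 in wild type replicate 2 and 0.12 or less on the other arrays. The red cell median was 2.04 in knockout replicate 2 and 0.098 or less on the other arrays, and the fat median was 2.63 in wild type replicate 1 and 0.26 or less on the others. The part of these markers in the members' values was not tested.

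Most other genes of the oocyte moved with the members. Of 27 measured genes in a list of other oocyte genes, 24 were lower and 3 higher in the knockout mean, 0 of them called. Their median was -0.20 (0.26 in the slide-blocked fit). Pde3a, 1 of the 3, passed the filter only through the knockouts, being well above background on 2 of the 3 wild-type arrays. Over the other 26 genes 24 were lower and 2 higher. Oosp3, a relative of Oosp1, differed by -0.34 and Omt2b by -0.29, the members of that list with the smallest unadjusted p. With slide as a block they were at 0.079 and -0.23, and with arrays left out in turn they ran from -0.63 to -0.13 and from -0.54 to -0.11. The r of each of these genes with the mean of the 6 members had a median of 0.967 over the list, and 18 of 27 were at 0.95 or above, as were 1.94% of the kept probes with a value on every array. The lowest r in the list was that of Gpr3 at -0.609, followed by Pde3a at 0.227 and Kit at 0.631. Among the regulators and processing factors of the zona, 11 of 11 were measured and all 11 were lower in the knockout mean, 0 called. Their median was -0.24 (0.19 in the slide-blocked fit). Taf4b passed the filter only through the knockouts, and the other 10 were all lower. Sohlh1 and Sohlh2, transcription factors of early oocytes, differed by -0.50 and -0.28, or by 0.048 and -0.016 with slide as a block. With arrays left out in turn they ran from -0.77 to -0.31 and from -0.42 to -0.17. Those with an r of 0.95 or above were Figla at 0.966, the oocyte homeobox genes Nobox at 0.987 and Lhx8 at 0.995, Astl, which encodes the protease that cleaves ZP2, at 0.993, and Izumo1r, which encodes the egg receptor for sperm, at 0.968. Sohlh1 was at 0.898, Sohlh2 at 0.776, Taf4b at 0.767 and Cd9 at 0.408. Furin, a protease, was at -0.799 and Prss35 at -0.647.

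Set against the mean of the 27 other oocyte genes on the same array, the members varied less from ovary to ovary. The range over the 6 ovaries was 0.88 to 1.00 for the 7 probes before and 0.21 to 0.36 after this subtraction. The subtracted mean, which includes Gpr3, Pde3a and Kit, had a range of 0.72. Gdf9 then stood at 4.49, 4.61 and 4.26 in wild type and 4.45, 4.52 and 4.32 in the knockout, a difference of -0.028 (exact two-sided permutation p = 0.90). Bmp15 stood at -0.24, -0.25 and -0.45 in wild type and -0.38, -0.27 and -0.36 in the knockout, a difference of -0.021 (exact p = 0.80). The genotypes overlapped for both. Differences for the coat genes were -0.079 for Zp1 (exact p = 0.60), -0.11 for Zp2 (exact p = 0.50) and -0.013 for Zp3 (exact p = 1). The brighter Oosp1 probe differed by 0.0051 (exact p = 1) and the dimmer one by -0.16 (exact p = 0.20). With 3 ovaries against 3 the smallest p that this test can give is 0.10.

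**Figure D4:**
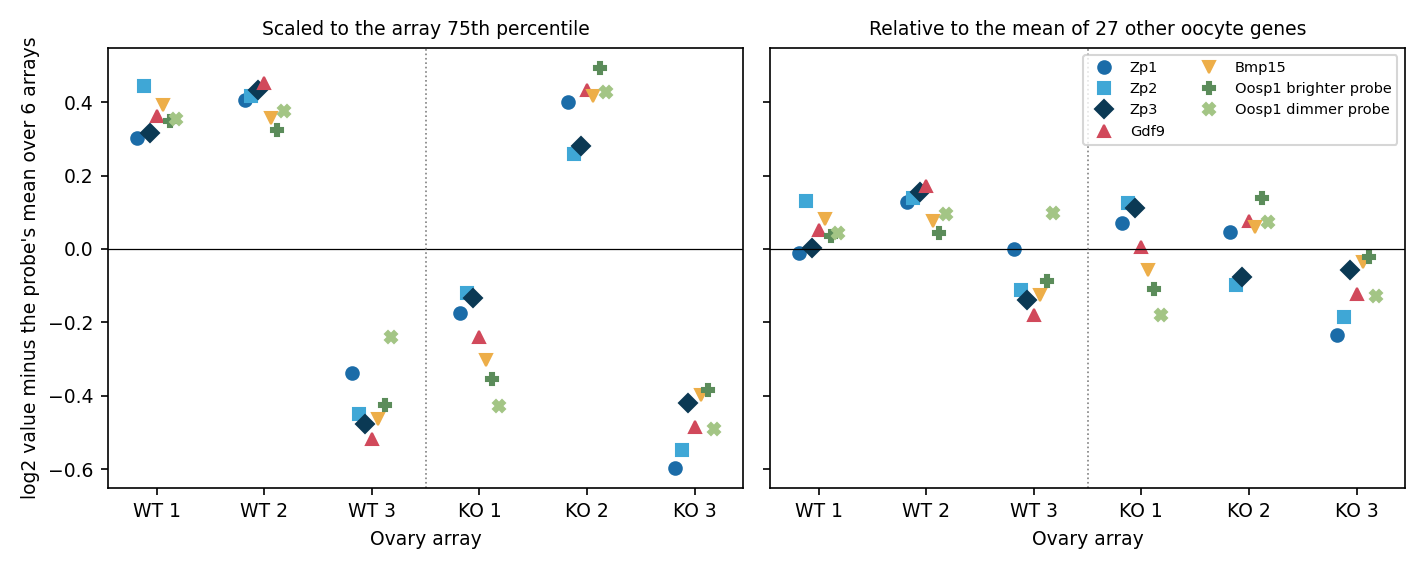
Values of the 7 probes by ovary, each minus its own mean over the 6 arrays, scaled to the 75th percentile of the array (left) or to the mean of 27 other oocyte genes (right), on the same log2 axis. The range of each probe over the 6 ovaries shrinks from 0.88 to 1.00 on the left to 0.21 to 0.36 on the right.

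The genes most like the members were, by the way they were picked, high and low in the same ovaries. By Pearson's r over the 6 arrays with the mean of the 6 members, the 10 highest named genes were Abcb9, Tdrd12, Naa11, Nlrp4f, Magea10, Zbtb5, Trim75, Fbxw18, Oas1e and Fbxw24, from 0.9998 for Abcb9 down to 0.995 for Fbxw24. Abcb9 encodes a lysosomal peptide transporter and Tdrd12 a factor of the germline piRNA pathway. Nlrp4f was in the list of other oocyte genes. Abcb9 read -0.040, -0.024 and -0.66 in wild type and -0.48, -0.030 and -0.69 in the knockout, with the same 3 high arrays. Tdrd12 read -2.82, -2.81 and -3.60 in wild type and -3.35, -2.83 and -3.59 in the knockout. The 10 genes differed by -0.31 to -0.099 between the genotypes, and each was higher in the knockout with slide as a block. Because they were picked by r with the members, their shared high arrays and directions follow from the choice. Measured in the same way against the mean of the other 5 members, r was lowest for Oosp1 at 0.965 and highest for Gdf9 at 0.998. Among the kept probes of other genes with a value on every array, 1.17% had an r with the same mean at least as high as that of Oosp1, and 0.0124% one as high as that of Gdf9.

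For receptors and targets of the oocyte growth factors, r with the members lay on both sides of 0. GDF9 and BMP15 signal through BMPR2 with type I receptors and SMAD proteins. Of 15 receptor and SMAD genes, all measured, 9 were lower and 6 higher in the knockout mean, 0 called, and their median was -0.028 (0.14 in the slide-blocked fit). Their median r with the members was 0.117, and 0 reached 0.95. Smad7, an inhibitor of the pathway, read -1.44, -1.46 and -1.56 in wild type and -1.01, -0.65 and -0.93 in the knockout, differing by 0.62 with a limma standard error of 0.13 (unadjusted p = 0.00242, adjusted p = 1.00). Its 3 knockouts lay above its 3 wild types, and for 8.96% of kept probes the genotypes did not overlap. Nor did they for Bmpr1a, lower in the knockout by 0.12, or for Id3, described below. Smad1 differed by -0.49, or -0.15 without wild type replicate 3 and -1.18 with slide as a block.

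Of 20 cumulus and granulosa targets 17 were measured, and Has2, Ptgs2 and Pgr were below the filter on background. Of the 17, 9 were lower and 8 higher, 0 called, and their median was -0.018 (0.37 in the slide-blocked fit). Tnfaip6 and Ptx3 passed the filter only through the knockouts, because neither was well above background on wild type replicate 3, and over the other 15 genes 9 were lower and 6 higher. The median r with the members was 0.061 over all 17 measured genes. Tnfaip6, which stabilises the cumulus matrix, read -4.67, -5.31 and -5.54 in wild type and -3.21, -5.06 and -2.03 in the knockout, differing by 1.74 (limma adjusted p = 1.00), or 1.04 without knockout replicate 3. It was well above background on 2 of the 3 wild-type arrays, so the size of this difference rests in part on a wild-type value near background. Its highest ovary, knockout replicate 3, was among the low ones for Gdf9 and Bmp15. Id3, a target of BMP signalling, differed by 0.53 with a limma standard error of 0.22 (adjusted p = 1.00), or 0.31 without knockout replicate 3. Id1 and Id2 of the same list differed by 0.17 and 0.047. With slide as a block Id3 was at 0.67, Id1 at 0.31 and Id2 at -0.89.

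**Figure D5:**
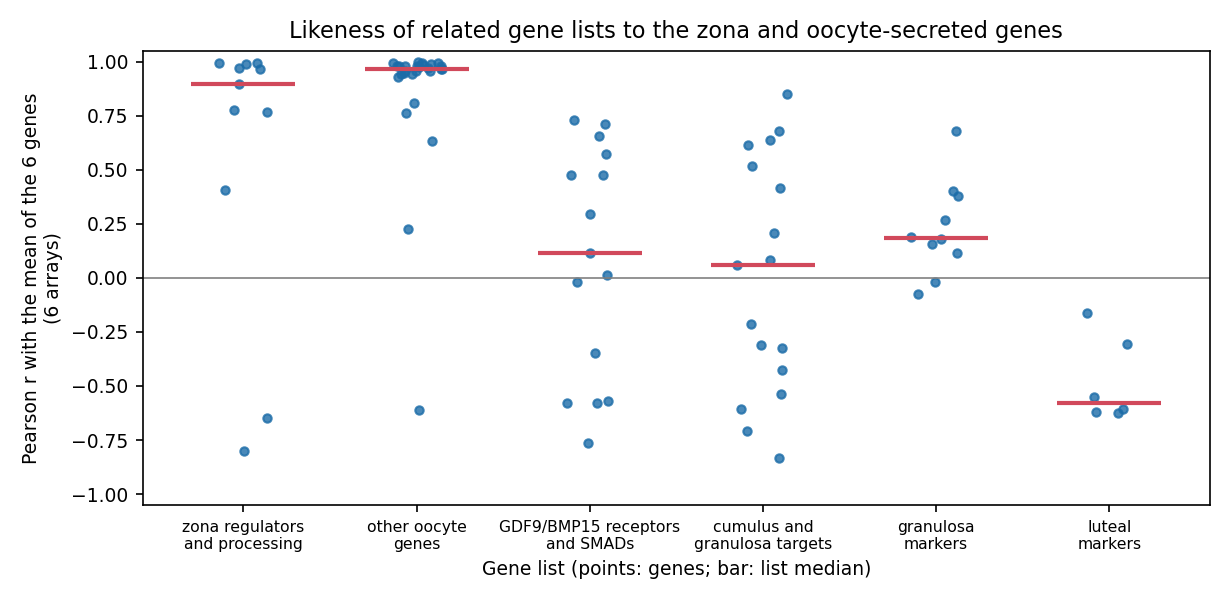
Pearson's r over the 6 arrays between each gene and the mean of the 6 members, by gene list; points are genes and bars are list medians. Other oocyte genes have a median of 0.967, receptors and SMADs 0.117, cumulus and granulosa targets 0.061 and luteal markers -0.579.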

How the data were processed

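Total RNA of 6 ovaries was measured on arrays scanned in 1 colour. The deposited scanner files hold spot intensity from Agilent Feature Extraction 10.7.1.1, background-subtracted and detrended within the array, with surrogates for low values and no normalization between arrays, per the file headers. The other deposited file, a series table, holds intensity with a median of 119.8 in each column. Values of the same rank differed between its arrays by at most 0.099%, so its arrays share a distribution. It followed the linear scanner values of each array with a Pearson's r of 0.9993 to 0.9999 across probes, so that it is on a linear scale without centring of genes. The method behind it is not given in the labels or headers.

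Each array had 43020 spots that were not controls. Outlier spots, 192 to 459 per array, were left out, the spots of a probe were averaged and none was saturated. Probes had to be well above background on every array of 1 genotype or the other, a filter that 24415 passed. The genotype comparison used limma 3.58.1 (lmFit, eBayes) under R 4.3.3, with Benjamini-Hochberg adjustment over all kept probes, and the fit was tested on simulated data. Single values relative to other oocyte genes were compared by exact permutation. Members were matched by the gene name in the files, and list genes also through RefSeq symbols, where the brightest kept probe stood for a gene. Of each list the 2 genes with the smallest p were to be named, and the 10 genes with the highest r. Genes named outside this rule, in the zona, oocyte, receptor and target lists and among the cell markers, were chosen after their values were seen. Members, lists and motifs were chosen with earlier results of these data known. Exact tests of the correlations were planned and are not given, because the arrays fall into separate sets. The small number of arrays limits precision.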

Additional observations from a re-analysis of the deposited data

How the results depend on the processing

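No member was called in the main analysis or in any of 17 alternative fits, and all 7 probes were lower in the knockout in 15 of these and higher in 2, which were slide as a fixed block and the shared slide alone. Of the 15, the fit with no filter, the one with a stricter filter and the replicate block cannot change a member's difference. The 2 fits with higher values both compare the knockouts with wild type replicate 3 only. Both gave 0.21 for Zp1, 0.31 for Zp2, 0.39 for Zp3, 0.42 for Gdf9, 0.37 for Bmp15, 0.34 and 0.078 for the brighter and dimmer Oosp1 probes, and a median of 0.34. They also gave medians of 0.19 for zona regulators, 0.14 for receptors and SMADs, 0.37 for cumulus and granulosa targets and 0.26 for other oocyte genes. The receptor median was 0.00078 and the target median 0.019 with array weights, and the target median was 0.10 with slide as a random block. Leaving out each array in turn moved the receptor median from -0.085 to 0.091 and the target median from -0.054 to 0.19, while the medians of the members (-0.48 to -0.018), zona regulators (-0.46 to -0.14) and other oocyte genes (-0.45 to -0.048) stayed below 0.

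Relative to other oocyte genes, the shared slide gave 0.058 for Zp2, 0.13 for Zp3, 0.17 for Gdf9 and 0.12 for Bmp15, Gdf9 was at 0.0074 with the deposited series values and Bmp15 at 0.037 with normexp. With arrays left out in turn these differences ran from -0.13 to 0.018 for Zp1, -0.19 to -0.039 for Zp2, -0.086 to 0.061 for Zp3, -0.13 to 0.051 for Gdf9, -0.090 to 0.014 for Bmp15, -0.063 to 0.061 for the brighter Oosp1 probe and -0.23 to -0.11 for the dimmer one.

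The count of called probes was 1 in the main analysis, and 0 with no filter, slide as a fixed block, the shared slide alone and the replicate block, in which 1804, 2389, 1604 and 1023 probes, in that order, had an unadjusted p under 0.05. Leaving out arrays gave counts from 0 to 38, the latter without wild type replicate 3. The replicate numbers in the labels did not pair the arrays: the deviations of arrays with the same number correlated at -0.33, 0.30 and -0.027 across probes, and not every array correlated best with its own number. The replicate block, being balanced, cannot change a difference of means (member median -0.20), and with it 0 members were called. The median r over the 15 pairs lay between 0.952 and 0.976 in every setting run. The cause of these changes was not tested.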
